A study of Mus musculus with 9 samples.

Results

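The BCL-2 family genes described here are 10 genes that set the survival threshold of mitochondria: Bcl2, Mcl1, Bcl2l1, Bcl2l2, Bcl2l11, Bax, Bak1, Bid, Bbc3 and Pmaip1. They were measured in regulatory T cells (Tregs), the Foxp3-expressing T cells that restrain immune responses, from the gut of Y3/CD103-/-, Y3 and wild-type mice. A member was taken from the array feature that the platform annotation pairs with that gene alone, and from the brightest such feature where there were several. This gave 9 of the 10 genes, out of 22180 genes with such a feature in all, and Bax was not analysed here. All 9 passed a filter on dim genes, a signal above the median of the own array on at least 3 of 9 arrays, which left 12792 genes for the tests.

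The C57BL/6 mice compared were of 3 genotypes, with 3 arrays each: Y3/CD103-/-, Y3 and wild type (WT). CD103 is the αE integrin chain, encoded by Itgae, and Y3/CD103-/- lacks it per its name. The labels do not describe Y3, and the title of the series links the design to IL-2Rβ, the signalling chain shared by the receptors for IL-2 and IL-15. Every group consisted of Tregs from the lamina propria of small and large intestine, sorted on a red fluorescent protein tied to Foxp3, so all the mice, WT included, carry that reporter. No age, treatment or litter is given, no group lacks CD103 alone, and the labels do not say whether an array is 1 mouse or a pool. Every p-value therefore measures the spread between these arrays, which may be technical.

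BCL-2 family proteins decide whether the outer membrane of the mitochondrion is breached. BAX and BAK1 form the pores, BCL2, MCL1, BCL-XL (gene Bcl2l1) and BCL-W (gene Bcl2l2) hold them in check, and the BH3-only proteins BIM (gene Bcl2l11), BID, PUMA (gene Bbc3) and NOXA (gene Pmaip1) neutralise the guardians or activate the pores. IL-2 acts through STAT5 and AKT in T cells: STAT5 can raise transcription of Bcl2, and AKT keeps the FOXO factors that drive Bcl2l11 and Bbc3 out of the nucleus. Tregs depend on IL-2 and on MCL1 for survival, and BIM is a main mediator of their death when the cytokine is withdrawn.

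The labels and the sort were checked on genes outside the family. Itgae had a log2 signal of 6.05 to 6.86 in Y3/CD103-/-, 9.11 to 9.51 in Y3 and 7.85 to 8.06 in WT, lowest on every Y3/CD103-/- array. All 9 Treg and T cell markers, Foxp3, Cd4, Cd3e and Ctla4 among them, stood above the median on every array. Replicates were not equally alike, since Y3 arrays 1 and 3 differed by a median of 0.16 log2 and the other pairs within a genotype by 0.22 to 0.28. Some markers of other cells stood above the array median in every library. The summed linear signal of 12 epithelial markers was 189.4 to 600.7 in Y3/CD103-/-, 182.1 to 279.4 in Y3 and 396.2 to 925.9 in WT. The summed signal of 10 macrophage, monocyte and dendritic cell markers was 351.3 to 421.2 in Y3/CD103-/-, 226.7 to 258.0 in Y3 and 283.4 to 588.1 in WT. With limma 0 of 10 tested epithelial markers passed in any comparison (0 up and 4 down at an unadjusted p under 0.05 in Y3 against WT, where 13.4% of all genes were up and 3.60% down). In each comparison with WT, 9 of the 10 had a difference below 0 and 1 above it. Fabp2 came closest to passing, at -2.60 in Y3/CD103-/- and -2.74 in Y3 with no overlap with WT (adjusted p = 0.0669 and 0.0557 with limma). Of 8 tested macrophage markers, 1, H2-Aa, fell in Y3 against WT, where 0.172% of all genes fell. At an unadjusted p under 0.05 there, 1 was up and 4 down, against 13.4% and 3.60% of all genes. The 1 up was Cd68, at 0.74 in Y3/CD103-/- and 0.77 in Y3 with no overlap with WT (adjusted p = 0.0801 and 0.0721). Between Y3/CD103-/- and Y3, 4 of those 8 were up and 0 down at that level, where 1.78% and 8.12% of all genes were. No feature of these arrays read 0 on the log2 scale (lowest 0.115), so a signal alone does not show that a transcript was present. Per array, 6 to 8 of the 10 macrophage, monocyte and dendritic cell genes and 8 to 11 of the 12 epithelial genes were above the median. So were 3 to 5 of 7 B and plasma cell markers, 3 to 5 of 6 CD8 and NK cell markers and 1 of 6 granulocyte and mast cell markers. Of 6 tested B and plasma cell markers, 0 were up and 3 down at an unadjusted p under 0.05 with limma in Y3 against WT. In bulk RNA of sorted cells, fewer cells of a type and less RNA per cell cannot be told apart.

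The windows before the transcription starts of the members are shown because IL-2 is linked to this family through STAT5 and FOXO. The windows are the 250 bases upstream of a RefSeq start in GRCm38.p6, which may not be the build behind the arrays. Windows were available for 9 members, Bax included, and there were 14 of them, since 3 members have several starts. Both strands were searched for TTCNNNGAA, a core of STAT sites, and for GTAAACA, a core of FOXO sites, which do not overlap in any window shown. Below, Bcl2l2 is at chr14:54883175-54883424 on the plus strand, Bcl2 at chr1:106714291-106714540 on the minus strand, Bcl2l11 at chr2:128125788-128126037 on the plus strand and Bbc3 at chr7:16310011-16310260 on the plus strand. Bcl2l2 and Bcl2 are printed as the members whose genotypes differ most in the results that follow, and Bcl2l11 and Bbc3 as the windows with a match. Capitals mark the FOXO letters, and each sequence runs 5′ to 3′ along its gene.
Bcl2l2: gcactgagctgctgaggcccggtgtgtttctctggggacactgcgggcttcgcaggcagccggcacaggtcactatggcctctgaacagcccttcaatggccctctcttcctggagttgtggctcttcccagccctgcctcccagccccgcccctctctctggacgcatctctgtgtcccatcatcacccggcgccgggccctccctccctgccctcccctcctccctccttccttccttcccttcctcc
Bcl2: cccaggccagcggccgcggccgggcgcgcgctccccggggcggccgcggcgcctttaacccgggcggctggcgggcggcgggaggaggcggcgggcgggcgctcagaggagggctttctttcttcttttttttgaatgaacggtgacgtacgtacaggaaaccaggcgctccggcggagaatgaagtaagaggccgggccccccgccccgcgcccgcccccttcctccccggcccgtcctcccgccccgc
Bcl2l11: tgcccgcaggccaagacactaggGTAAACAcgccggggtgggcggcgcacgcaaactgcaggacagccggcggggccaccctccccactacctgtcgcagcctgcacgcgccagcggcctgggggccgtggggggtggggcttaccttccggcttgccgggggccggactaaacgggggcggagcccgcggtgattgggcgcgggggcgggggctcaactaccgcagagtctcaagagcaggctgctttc
Bbc3: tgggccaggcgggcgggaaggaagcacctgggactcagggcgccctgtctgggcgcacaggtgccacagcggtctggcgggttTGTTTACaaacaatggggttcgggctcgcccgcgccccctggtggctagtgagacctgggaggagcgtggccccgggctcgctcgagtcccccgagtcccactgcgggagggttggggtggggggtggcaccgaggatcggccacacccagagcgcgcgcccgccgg
The STAT letters occurred in 0 of the 14 windows, against 7.02% of 32851 such windows of all genes, and the FOXO letters in 2, against 3.17%. The Bcl2l11 match starts 227 bases before the transcription start (position -227). The Bbc3 match is the reverse complement of the letters and starts at position -167. Both matches are in BH3-only genes. The Bcl2 window was 74.8% G and C with 36 CpG dinucleotides, and the Bcl2l2 window 66.0% with 9. A match is only an occurrence of letters.

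Among the pro-survival genes, Bcl2l2 differed most between the genotypes and was the only member that passed the test in any comparison, as 1 of 9 in Y3 against WT, where 0.790% of all genes were called. Its product BCL-W holds BAX and BAK1 in check and is best known for its need in sperm production. Bcl2l2 had a log2 signal of 3.84, 3.31 and 3.78 on Y3/CD103-/- arrays 1, 2 and 3, 4.21, 4.31 and 3.89 on the Y3 arrays and 3.05, 2.95 and 3.25 on the WT arrays. Every Y3 array lay above every array of the other genotypes, and every Y3/CD103-/- array above every WT array. Y3/CD103-/- was set apart by narrow margins, 3.84 against 3.89 in Y3 and 3.31 against 3.25 in WT. Bcl2l2 averaged 3.64 ± 0.29 in Y3/CD103-/-, 4.14 ± 0.22 in Y3 and 3.08 ± 0.16 in WT (SD, n = 3 each). It rose 2.08-fold in Y3 against WT, by 1.05 ± 0.19 log2 (SE; 95% interval 0.63 to 1.47; adjusted p = 0.0339 with limma), the 71st smallest p of the 12792 genes. The median of all genes was 0.15 log2 above WT in Y3, and relative to it the difference of Bcl2l2 was 0.90. The difference of Y3/CD103-/- from WT was 0.56 (0.14 to 0.98, adjusted p = 0.225), and from Y3 it was -0.49 (-0.91 to -0.07, adjusted p = 0.454), and neither passed.

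**Figure D1:**
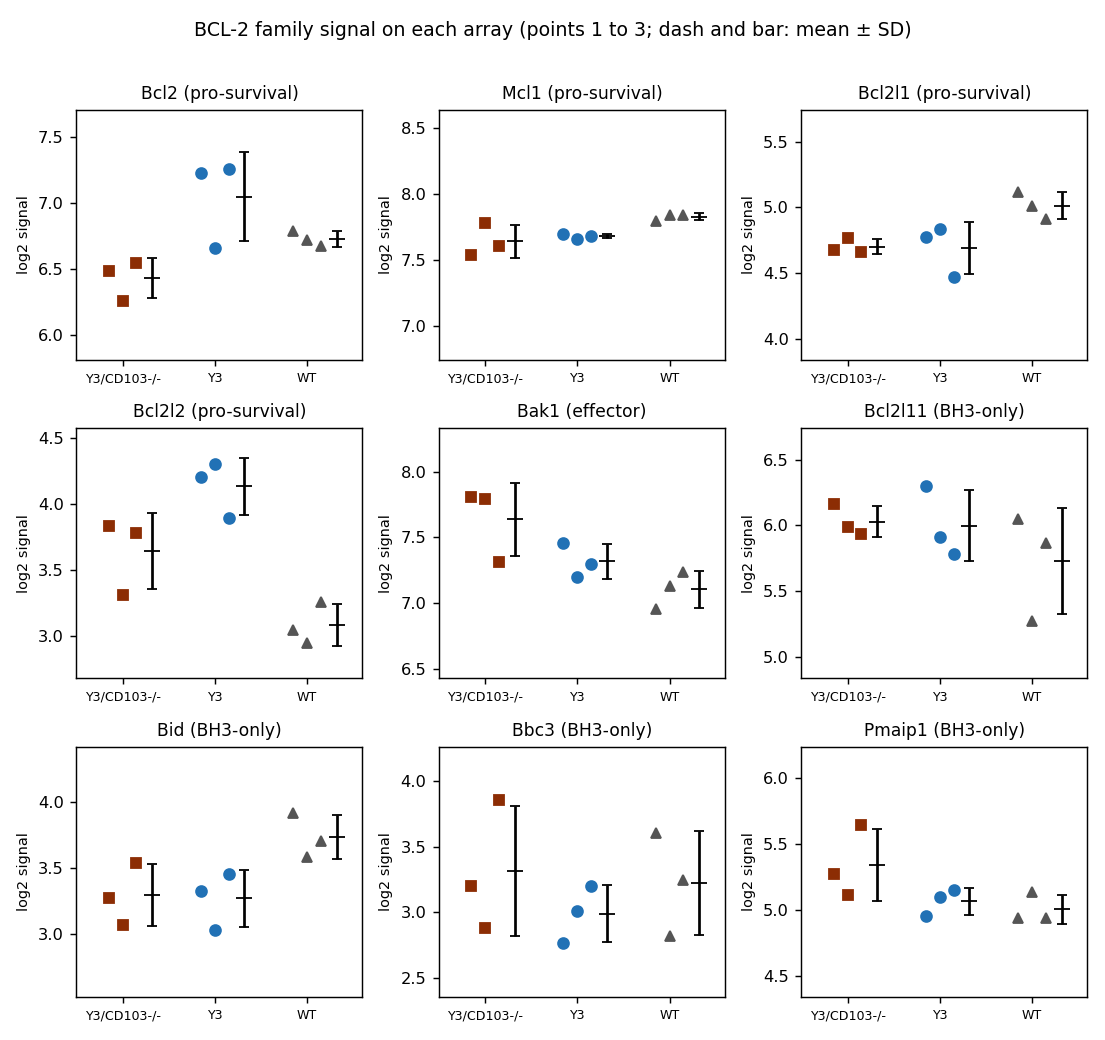
Log2 signal of the 9 measured BCL-2 family genes (vertical axes, each spanning the same number of log2 units) on every array of Y3/CD103-/- (squares), Y3 (circles) and WT (triangles), with the mean and SD of 3 arrays beside each group. Bcl2l2 does not overlap between the 3 genotypes, with narrow gaps on either side of Y3/CD103-/-. Bid and Bcl2l1 are lower on every Y3/CD103-/- and Y3 array than on any WT array, and Bbc3 overlaps throughout.

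The rise of Bcl2l2 rests on a dim feature: 3 of 3 Y3/CD103-/- arrays, 3 of 3 Y3 arrays and 1 of 3 WT arrays had a signal above the array median, so the gene reached the tests through the genotypes in which it was higher. With no filter the difference was the same and did not pass (adjusted p = 0.0667). It passed in 3 of 9 fits with an array left out, those without a Y3/CD103-/- array, and without any 1 WT or Y3 array the adjusted p was 0.0574 to 0.156. The difference itself stayed between 0.97 and 1.17 in those 9 fits. With the mean of the epithelial markers as a covariate the difference was 1.02 (0.41 to 1.63, adjusted p = 0.279), and with the mean of the macrophage markers it was 1.13 (0.38 to 1.87, adjusted p = 0.407). It was 0.89 with arrays centred on their median (adjusted p = 0.0872) and 1.00 after quantile normalization (adjusted p = 0.0526). With Y3 arrays 1 and 3 averaged as 1 sample it was 1.10 (adjusted p = 0.121).

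**Figure D2:**
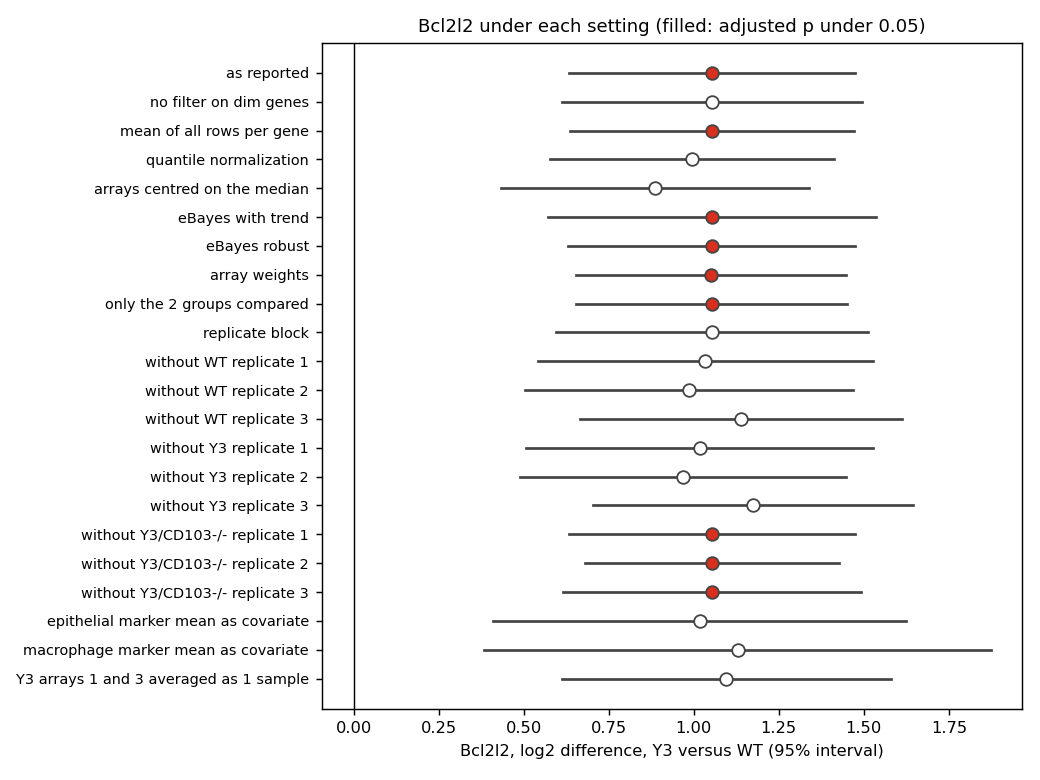
Log2 difference of Bcl2l2 in Y3 versus WT (horizontal axis) with its 95% interval under the reported setting and each alternative that kept the gene. Filled points have an adjusted p under 0.05. Every interval lies above 0, and the differences run from 0.89 to 1.17. The intervals are not adjusted for the number of genes, the settings share arrays, and the gene is shown because it passed.

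Bcl2, the founding pro-survival gene and a STAT5 target in T cells, was ordered Y3/CD103-/- below WT below Y3 by its means. Its log2 signal was 6.48, 6.26 and 6.54 in Y3/CD103-/-, 7.23, 6.66 and 7.26 in Y3 and 6.79, 6.72 and 6.67 in WT. Every Y3/CD103-/- array was below every other array, while Y3 array 2 stood just under the WT arrays and the other Y3 arrays stood above them. Bcl2 averaged 6.43 ± 0.15 in Y3/CD103-/-, 7.05 ± 0.34 in Y3 and 6.73 ± 0.06 in WT. The difference of Y3/CD103-/- from Y3 was -0.62 (95% interval -1.03 to -0.21, unadjusted p = 0.00673 and adjusted p = 0.343 with limma). The difference from WT was -0.30 in Y3/CD103-/- (-0.71 to 0.11, adjusted p = 0.532) and 0.32 in Y3 (-0.09 to 0.73, adjusted p = 0.399). None of the 3 differences passed. The value in Y3 was 0.16 with arrays centred on their median, 0.18 after quantile normalization and 0.52 without Y3 array 2, where it did not pass either (adjusted p = 0.177).

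A second feature naming Bcl2 alone was dimmer and was not used for the tests. It read 3.95, 4.09 and 4.48 in Y3/CD103-/-, 4.73, 4.43 and 5.01 in Y3 and 4.45, 4.29 and 3.81 in WT. Its difference of Y3/CD103-/- from Y3 was -0.55 (adjusted p = 0.584 over 21770 features), close to that of the brighter feature, but its difference of Y3/CD103-/- from WT was -0.01. The brighter feature set Y3/CD103-/- apart from both genotypes, and the dimmer one had overlapping groups in every comparison.

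Mcl1, whose short-lived product Tregs need for survival, had the narrowest range of the members over the 9 arrays on the features used. Its log2 signal was 7.54, 7.78 and 7.60 in Y3/CD103-/-, 7.70, 7.66 and 7.68 in Y3 and 7.80, 7.84 and 7.84 in WT. On this feature all the arrays of Y3/CD103-/- and Y3 lay below all the WT arrays, by small amounts. The difference from WT was -0.19 in Y3/CD103-/- (-0.49 to 0.12, adjusted p = 0.611) and -0.15 in Y3 (-0.45 to 0.16, adjusted p = 0.610). With arrays centred on their median the difference in Y3 was -0.31 (-0.62 to -0.0021, adjusted p = 0.385). Between Y3/CD103-/- and Y3 it was -0.04 (-0.35 to 0.27), and it was 0.03 after quantile normalization and 0.11 with arrays centred on their median. A second, dimmer Mcl1 feature differed from WT by -0.39 in Y3/CD103-/- (-0.81 to 0.02) and by 0.05 in Y3 (-0.37 to 0.46), and neither passed over all features.

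Bcl2l1 encodes BCL-XL, a pro-survival protein induced by activation and cytokines in T cells. Its log2 signal was 4.68, 4.77 and 4.66 in Y3/CD103-/-, 4.77, 4.84 and 4.47 in Y3 and 5.12, 5.01 and 4.92 in WT. Both groups with Y3 lay wholly below WT and overlapped each other. The difference from WT was -0.31 in Y3/CD103-/- (-0.65 to 0.03, adjusted p = 0.422) and -0.32 in Y3 (-0.66 to 0.02, adjusted p = 0.318). The 4 pro-survival genes thus had no common direction in Y3. By the means of the features used, Bcl2l2 and Bcl2 were above WT and Mcl1 and Bcl2l1 below it. Bcl2l2 alone passed the test.

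Bak1, 1 of the pair of pore-forming effectors, read 7.80, 7.79 and 7.31 in Y3/CD103-/-, 7.46, 7.20 and 7.30 in Y3 and 6.95, 7.13 and 7.24 in WT. Every Y3/CD103-/- array was above every WT array, the lowest by a narrow margin, and Y3 overlapped both. The difference from WT was 0.53 in Y3/CD103-/- (0.14 to 0.92, unadjusted p = 0.0126 and adjusted p = 0.216 with limma) and 0.21 in Y3 (-0.18 to 0.60, adjusted p = 0.563). Neither passed.

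Of the BH3-only genes, Bcl2l11, which encodes the cytokine-withdrawal sensor BIM, read 6.16, 5.99 and 5.94 in Y3/CD103-/-, 6.30, 5.91 and 5.78 in Y3 and 6.05, 5.28 and 5.86 in WT. The groups overlapped, and WT array 2 stood lowest of all. The difference from WT was 0.30 in Y3/CD103-/- (-0.18 to 0.78, adjusted p = 0.605) and 0.27 in Y3 (-0.21 to 0.75, adjusted p = 0.552), so a doubling, a difference of 1 on this scale, is outside both intervals. Without WT array 2 the differences were 0.07 and 0.04. With the macrophage marker mean as a covariate the difference in Y3 was -0.36.

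Bid, which links death receptors to the mitochondrion after cleavage by caspase-8, was low in both groups with Y3. Its log2 signal was 3.27, 3.07 and 3.54 in Y3/CD103-/-, 3.33, 3.03 and 3.45 in Y3 and 3.91, 3.58 and 3.71 in WT. Neither group with Y3 overlapped WT, and the pair overlapped each other. The difference from WT was -0.44 in Y3/CD103-/- (-0.85 to -0.04, adjusted p = 0.324) and -0.47 in Y3 (-0.87 to -0.06, adjusted p = 0.236), and neither passed. The feature was above the array median on 2 of 3 Y3/CD103-/-, 2 of 3 Y3 and 3 of 3 WT arrays.

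Bbc3 and Pmaip1 encode PUMA and NOXA, BH3-only proteins induced by p53, and NOXA binds MCL1. Bbc3 read 3.20, 2.89 and 3.85 in Y3/CD103-/-, 2.77, 3.01 and 3.20 in Y3 and 3.61, 2.82 and 3.25 in WT, and was above the array median on 4 of 9 arrays. Pmaip1 read 5.27, 5.11 and 5.64 in Y3/CD103-/-, 4.95, 5.10 and 5.15 in Y3 and 4.94, 5.13 and 4.94 in WT. The groups of both genes overlapped, with Y3/CD103-/- array 3 the highest for each. The difference of Bbc3 from WT was 0.09 in Y3/CD103-/- (-0.50 to 0.68) and -0.23 in Y3 (-0.82 to 0.36). That of Pmaip1 was 0.34 in Y3/CD103-/- (-0.04 to 0.72) and 0.06 in Y3 (-0.31 to 0.44), and the value in Y3 was -0.10 under either other scaling.

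Over the 9 tested members, 1 rose and 0 fell in Y3 against WT, where 0.618% of all genes rose and 0.172% fell, 0.790% together. At an unadjusted p under 0.05 there 1 member was up and 1 down, against 13.4% and 3.60% of all genes. The groups did not overlap in 1 member that was higher in Y3 and 3 that were lower, against 19.0% and 4.93% of all genes. In Y3/CD103-/- against WT 0 of 9 passed with limma, where 0.836% of all genes were called, and 2 up and 1 down had an unadjusted p under 0.05, where 7.90% and 5.35% of all genes did. There 2 members were higher and 4 lower without overlap, against 10.7% and 6.68% of all genes. Between Y3/CD103-/- and Y3, 0 of 9 passed with limma, where 0.00782% of all genes, 1 gene, were called. There 0 members were up and 2 down, Bcl2 and Bcl2l2, at an unadjusted p under 0.05, against 1.78% and 8.12% of all genes. Those 2 were also the members without overlap, 0 higher and 2 lower, against 4.11% and 14.4% of all genes. The median difference of the members was 0.06 in Y3 against WT, 0.09 in Y3/CD103-/- against WT and 0.02 in Y3/CD103-/- against Y3, where that of all genes tested was 0.15, 0.04 and -0.10. The comparisons share arrays, so their values are not independent of each other.

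**Figure D3:**
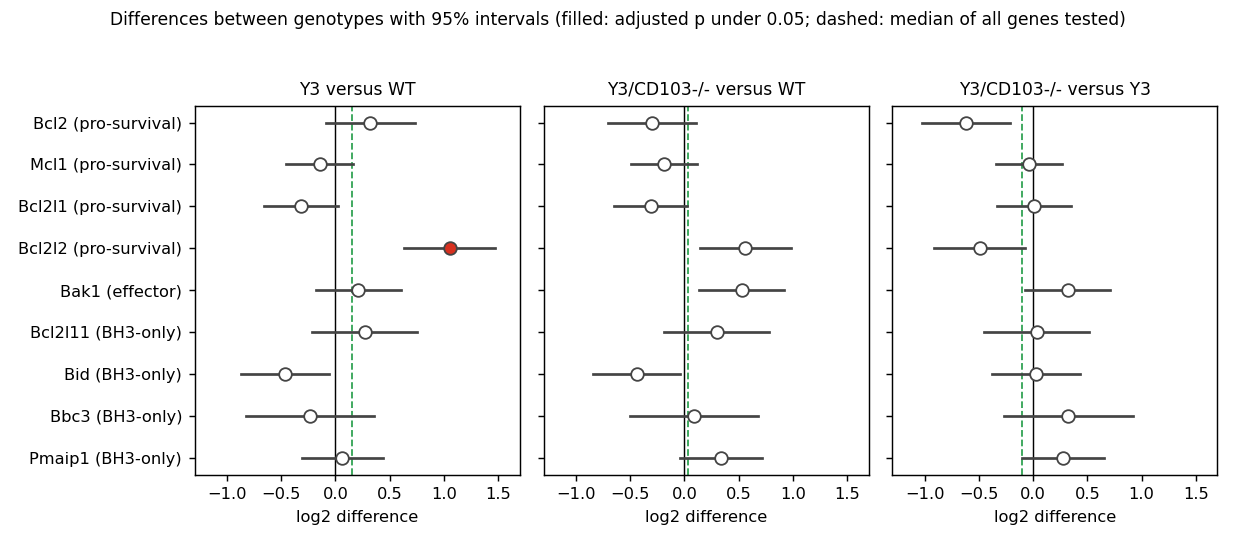
Log2 differences (horizontal axes) of the 9 members for each pair of genotypes, with 95% intervals from limma. The dashed line is the median of all 12792 genes tested, and filled points have an adjusted p under 0.05. Bcl2l2 in Y3 versus WT, at 1.05, is the filled point, and Bcl2 in Y3/CD103-/- versus Y3, at -0.62, is the lowest.

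Ratios of signals within an array, set to a mean of 0 in WT, show how unequally the members differed, and no test was made on them. Bcl2 relative to Bak1 was -0.94, -1.15 and -0.39 log2 in Y3/CD103-/-, 0.15, -0.16 and 0.34 in Y3 and 0.21, -0.03 and -0.18 in WT. Every Y3/CD103-/- array lay below every array of the other genotypes, as it did for Bcl2 alone, so the ratio is not independent evidence. Bcl2 relative to Bcl2l11 was -0.67, -0.73 and -0.39 in Y3/CD103-/-, -0.07, -0.25 and 0.48 in Y3 and -0.26, 0.45 and -0.19 in WT, with the same separation. All ratios with Bcl2 or Mcl1 use the brighter feature of that gene. The dimmer Bcl2 feature differed from WT by -0.01 in Y3/CD103-/-, with overlapping groups, and its ratios were not taken. Bcl2l1 relative to Bcl2l11 averaged -0.61 ± 0.14 in Y3/CD103-/-, -0.59 ± 0.23 in Y3 and 0 ± 0.39 in WT, and Mcl1 relative to Bcl2l11 averaged -0.49 ± 0.21, -0.42 ± 0.26 and 0 ± 0.42 in the same groups. The Bcl2l1 ratios of both groups with Y3 lay below all the WT ratios, and the Mcl1 ratios overlapped. Bcl2l2 relative to Bcl2 averaged 0.86 ± 0.15 in Y3/CD103-/-, 0.73 ± 0.51 in Y3 and 0 ± 0.20 in WT (SD, n = 3 each), above every WT array in both. In Y3 the margin was narrow, 0.28 on Y3 array 3 against 0.23 on WT array 3.

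**Figure D4:**
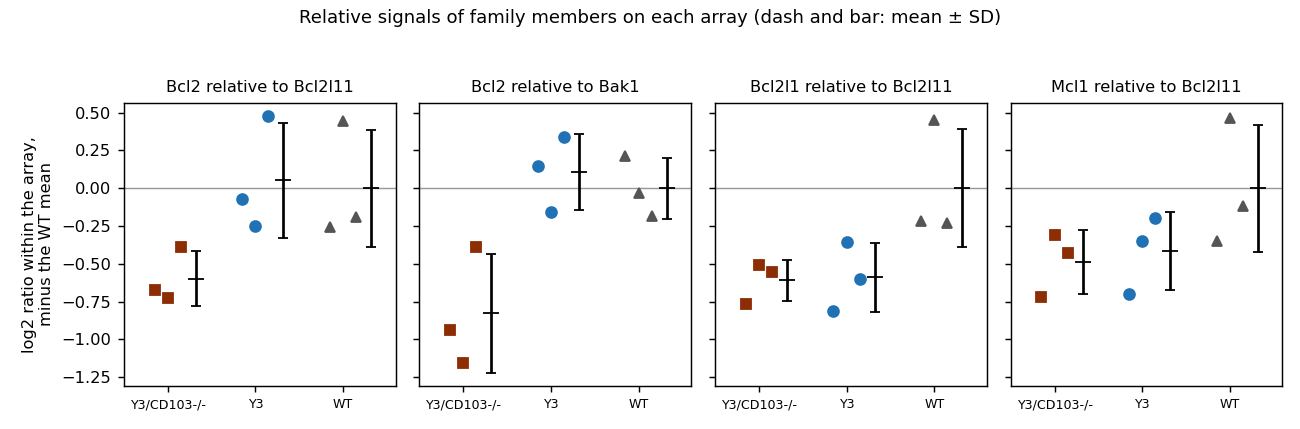
Log2 ratio of a pro-survival gene to Bcl2l11 or Bak1 on each array, less the WT mean (vertical axis), for Y3/CD103-/- (squares), Y3 (circles) and WT (triangles), with mean and SD of 3 arrays. Both Bcl2 ratios, taken from the brighter Bcl2 feature only, are lowest in Y3/CD103-/-, at means of -0.60 and -0.83, and near 0 in Y3.

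The genes of most similar profile were found for Bcl2l2, Bcl2, Mcl1 and Bcl2l11 by the root mean square difference of gene-centred log2 values over the 9 arrays, among 11550 genes. Ptpn11 (0.19), Hip1 (0.20) and Nlk (0.20) were nearest to Bcl2l2, whose own spread was 0.47. Rbl1, Washc2 and Nisch were nearest to Bcl2 (0.10 to 0.11, own spread 0.31). Dnajc4, Emp3 and Ireb2 were nearest to Mcl1 (0.045 to 0.057, own spread 0.10), and Nos2, Coro7 and Alpl to Bcl2l11 (0.11 to 0.13, own spread 0.27). These are nearness values over shared arrays and carry no test.

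Other genes of the pathway were taken from 5 lists of 81 genes, of which 61 were tested. In Y3/CD103-/- against WT 2 rose and 3 fell, where 0.555% of all genes rose and 0.281% fell. In Y3 against WT 3 rose and 2 fell, where 0.618% of all genes rose and 0.172% fell. Between Y3/CD103-/- and Y3, 0 of 61 passed with limma, and 1 up and 3 down had an unadjusted p under 0.05, where 1.78% and 8.12% of all genes did. Their median difference was 0.01 in Y3/CD103-/- against WT and 0.23 in Y3 against WT, where that of all genes was 0.04 and 0.15. In Y3 against WT 0 of the 61 passed with either marker mean as a covariate or with Y3 arrays 1 and 3 averaged. Against WT, 1 gene in Y3/CD103-/- passed with the epithelial and 2 with the macrophage covariate.

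Downstream of the mitochondrion, Apaf1, the scaffold of the apoptosome that activates caspase-9, rose in both groups with Y3. Its log2 signal was 7.38, 7.46 and 7.65 in Y3/CD103-/-, 7.35, 7.17 and 7.496 in Y3 and 5.82, 5.75 and 6.28 in WT, and both groups lay wholly above WT. The rise was 2.91-fold in Y3/CD103-/- (1.54 ± 0.18 log2 (SE), adjusted p = 0.00498 with limma) and 2.61-fold in Y3 (1.39 ± 0.18, adjusted p = 0.0118). Birc2, which encodes the ubiquitin ligase cIAP1, read 8.89, 8.998 and 9.33 in Y3/CD103-/-, 9.14, 9.16 and 9.37 in Y3 and 8.24, 8.26 and 8.23 in WT. Its rise was 0.83 in Y3/CD103-/- (adjusted p = 0.0447) and 0.98 in Y3 (adjusted p = 0.0225 with limma). These were the only calls among 14 tested genes of that list, which also holds cytochrome c, Diablo, Xiap, caspases 6 and 9 and the Vdac channels, and its median difference was 0.00 in Y3/CD103-/- and 0.33 in Y3. Of all genes 0.836% were called in Y3/CD103-/- against WT and 0.790% in Y3 against WT. With an array left out, Apaf1 passed in 9 of 9 fits in Y3/CD103-/- and 7 of 9 in Y3, where the adjusted p was 0.0815 without Y3 array 1 and 0.0939 without Y3 array 3. Birc2 passed in 0 of 9 such fits in Y3/CD103-/- (adjusted p 0.0636 to 0.147) and 4 of 9 in Y3 (up to 0.145).

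Of 17 tested genes between the IL-2 receptor, STAT5 and AKT, 3 fell in Y3/CD103-/- and 2 fell in Y3, and 0 rose. Of all genes 0.281% fell and 0.555% rose in Y3/CD103-/-, and 0.172% fell and 0.618% rose in Y3. At an unadjusted p under 0.05 there were 2 up and 4 down in Y3/CD103-/-, where 7.90% and 5.35% of all genes were. In Y3 there were 4 up and 4 down at that level, against 13.4% and 3.60% of all genes. The median difference was -0.07 in Y3/CD103-/- and 0.07 in Y3. Socs2, a feedback inhibitor induced by STAT5, read 3.39, 4.58 and 3.61 in Y3/CD103-/-, 2.83, 3.58 and 3.34 in Y3 and 5.52, 5.27 and 5.31 in WT. With limma it fell by 1.51 in Y3/CD103-/-, with an adjusted p of 0.0447, and by 2.12 in Y3, with an adjusted p of 0.0119 and the deepest fall among the members and the 5 lists. The Socs2 feature was near the array median in Y3, above it on 2 of 3 Y3, 3 of 3 Y3/CD103-/- and 3 of 3 WT arrays. Il7r, the α chain of the receptor for IL-7, another cytokine that sustains Bcl2 in T cells, read 7.53, 7.92 and 7.76 in Y3/CD103-/-, 7.17, 7.92 and 7.37 in Y3 and 8.88, 8.82 and 9.004 in WT. Every array of both groups lay below WT, and Il7r fell by 1.16 in Y3/CD103-/-, with an adjusted p of 0.0271 from limma, and by 1.42 in Y3, with an adjusted p of 0.0125. Il2ra encodes CD25, which makes the IL-2 receptor high-affinity. It read 7.12, 7.29 and 7.45 in Y3/CD103-/-, 7.41, 7.48 and 7.61 in Y3 and 8.11, 8.15 and 8.19 in WT, a fall by 0.86 in Y3/CD103-/- (adjusted p = 0.0258 with limma) and a difference of -0.65 in Y3 that missed the threshold (adjusted p = 0.0790). Il2rb, the β chain, differed by -1.03 in Y3/CD103-/- and -1.04 in Y3, just short of the threshold (adjusted p = 0.0590 and 0.0565). Stat5a and Stat5b, which encode the STAT5 proteins, lay wholly above WT in both groups without passing. The difference of Stat5a was 0.72 in Y3/CD103-/- (adjusted p = 0.0881) and 0.61 in Y3 (adjusted p = 0.123), and that of Stat5b 0.48 and 0.30 in the same groups (adjusted p = 0.147 and 0.291). With an array left out, Socs2 passed in 1 of 9 fits in Y3/CD103-/- and 7 of 9 in Y3, Il7r in 2 and 7, and Il2ra in 1 and 0.

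The list of transcription factors of BH3-only genes also holds Cdkn1a, which is not one but a p53 target that encodes the cell cycle inhibitor p21. Trp53, which encodes p53, was not analysed here. Cdkn1a was the only gene of 13 tested that passed, in Y3 against WT, where 0.790% of all genes were called. It read 8.06, 8.73 and 8.35 in Y3/CD103-/-, 8.73, 8.28 and 8.67 in Y3 and 7.58, 7.59 and 7.52 in WT. It rose by 0.99 log2 in Y3 (adjusted p = 0.0497 with limma), and in Y3/CD103-/- the difference was 0.81 and missed the threshold (adjusted p = 0.0925). The rise in Y3 passed in 2 of 9 fits with an array left out. Foxo1 and Foxo3, which encode the factors behind the letters searched above, were in the list and did not pass, with differences of 0.19 and 0.37 in Y3/CD103-/- and 0.18 and 0.50 in Y3.

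Less common BCL-2 relatives were represented by 8 tested genes of 17, and 0 passed in any comparison with limma, with 2 up and 0 down at an unadjusted p under 0.05 in each comparison with WT. Over all genes 7.90% were up and 5.35% down at that level in Y3/CD103-/-, and 13.4% and 3.60% in Y3. Their median difference was 0.38 in Y3/CD103-/- and 0.31 in Y3. Bcl2l13, a mitochondrial relative of BCL-2, differed by 0.85 in Y3/CD103-/- (0.34 to 1.36, adjusted p = 0.130) and 0.61 in Y3 (adjusted p = 0.224). Becn1, a BH3-containing autophagy protein that binds BCL2, differed by 0.38 in Y3/CD103-/- and 0.69 in Y3 (0.27 to 1.12, adjusted p = 0.121). Of 9 tested genes that act on the stability of MCL1 or BIM, 0 passed in any comparison with limma, with 1 up and 0 down at that level in each comparison with WT, against the same shares of all genes. Dynll1, the dynein light chain that tethers BIM, differed by 0.72 in Y3/CD103-/- (adjusted p = 0.147), and Fbxw7, a ubiquitin ligase subunit for MCL1, by 0.53 in Y3 (adjusted p = 0.226).

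**Figure D5:**
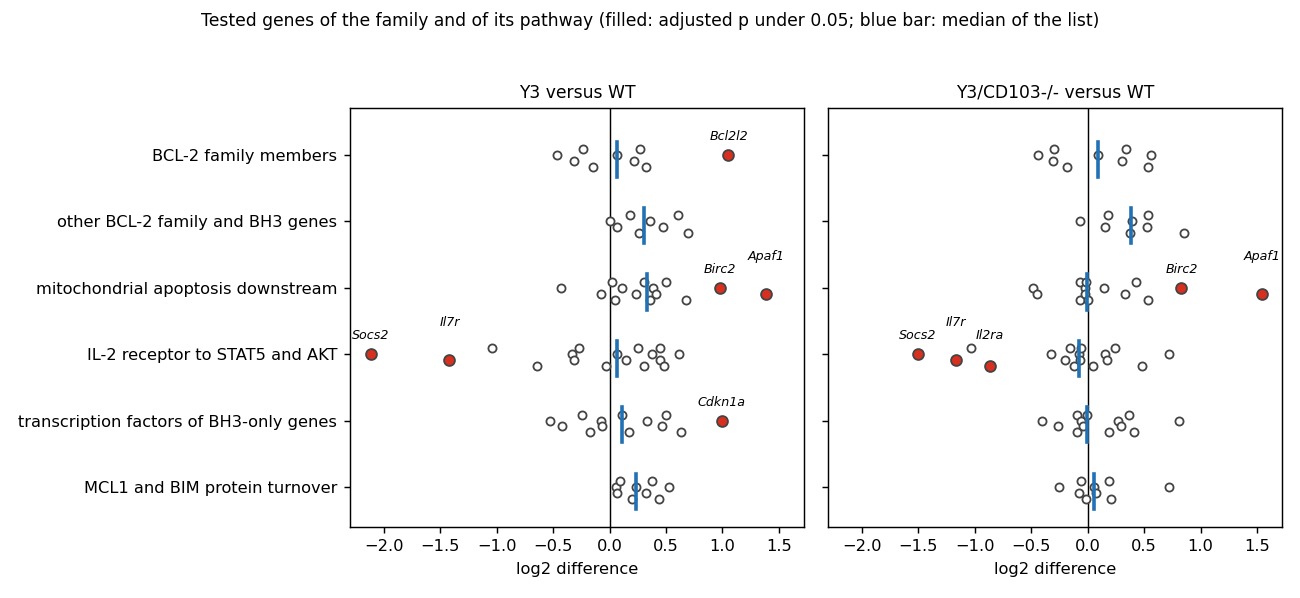
Log2 difference of each tested gene (horizontal axes) in Y3 versus WT and Y3/CD103-/- versus WT, by list, with a bar at the median of the list. Filled and named genes have an adjusted p under 0.05: Bcl2l2 among the members, and Apaf1, Birc2, Socs2, Il7r, Il2ra and Cdkn1a elsewhere.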

How the data were processed

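The arrays were Affymetrix mouse Gene ST 2.0 arrays, hybridised with RNA amplified in a single round and labelled with biotin, per the labels' protocols. The signals deposited by the authors are on a log2 scale, as the values show (lowest 0.115, highest 14.1), and come from RMA, per the submitters' processing notes. Its settings, the annotation and the build are not given in the sources. Array medians were 3.15 to 3.23. Of 39137 features, 23521 named 1 gene, 1814 several and 13802 none, and 22180 genes were represented.

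In R 4.3.3, lmFit and eBayes of limma 3.58.1 gave the differences, with all 9 arrays in 1 model of 3 group means and no block. p-values were 2-sided and adjusted by Benjamini-Hochberg over 12792 genes within each pair of genotypes, and genes with an adjusted p under 0.05 are said to rise or fall. Errors are SDs over 3 arrays, or standard errors and 95% intervals from limma. The number of arrays limits the precision: the 95% interval of the median gene reached 0.45 log2 to either side in Y3 versus WT. The scripts were tested on simulated data. The labels do not say whether replicate numbers pair the arrays. Correlations of deviations from the group mean were -0.04 to 0.11 between same-numbered arrays of different genotypes and -0.14 to 0.07 between the others. With 3 arrays a group these values do not settle whether the arrays were paired.

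The members and lists were chosen with earlier results of these data known. All members were named, with Itgae, Il2rb, Il2ra and Foxp3. Of each pathway list the genes that passed were named, or the 2 of smallest p where none did. The 3 genes nearest in profile were named for 4 members. Foxo1, Foxo3, Stat5a, Stat5b, Cd68, Fabp2 and other genes named as list contents were chosen after their values were seen. Alternatives changed the filter, the scaling, the choice among several features of a gene, the variance model and the weights of arrays, fitted only the pair compared, added the replicate number as a block, or left out each array. The marker covariates and the average of Y3 arrays 1 and 3 were added after seeing the data.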

Additional observations from a re-analysis of the deposited data

How the results depend on the processing

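The precision is that of 3 arrays a genotype, and dim features such as Bcl2l2, Bid and Bbc3 lie near the array median. Over 27 member differences and their 585 alternatives, 554 kept direction and side of the threshold, 13 kept direction and no longer passed, all of Bcl2l2 in Y3 versus WT, and 18 turned direction. The causes were not tested. The count of members called in Y3 versus WT was 1 as reported. It was 0 with no filter, with a stricter filter, which removed Bcl2l2, after quantile normalization, with centred arrays, with either marker covariate and with Y3 arrays 1 and 3 averaged (adjusted p of Bcl2l2 0.0667 without a filter and 0.121 with the average), and 0 to 1 with an array left out. With the replicate number as a block the count was 0 (adjusted p of Bcl2l2 0.0730). The 5 calls of the pathway lists in Y3 versus WT became 3 with no filter, 9 with a variance trend, 0 with either covariate, 0 with the average, and 0 to 5 with an array left out. The 5 in Y3/CD103-/- versus WT became 1 with no filter, 8 with the stricter filter, 10 with a trend, 1 with array weights, 1 with only those 2 groups, 2 with the replicate block, 1 with the epithelial and 2 with the macrophage covariate, 2 with the average, and 1 to 3 with an array left out. Over all genes, the 101 calls in Y3 versus WT ranged over 2 to 346, the 107 in Y3/CD103-/- against WT over 16 to 303 and the 1 in Y3/CD103-/- against Y3 over 0 to 9.

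None of the turned differences passed the test. In Y3 versus WT, Bcl2l11 was -0.36 with the macrophage covariate, against 0.27 as reported, and Pmaip1 -0.10 under quantile normalization and -0.10 with centred arrays. In Y3/CD103-/- versus WT, Bbc3 was -0.11 without WT array 2, -0.18 without Y3/CD103-/- array 3 (-0.18 to 0.31 over the arrays left out) and -0.21 with the epithelial covariate. In Y3/CD103-/- versus Y3, Mcl1 was 0.027 under quantile normalization, 0.11 with centred arrays and 0.011 without Y3/CD103-/- array 1 (-0.11 to 0.011). Bcl2l1 was -0.10 without Y3 array 3, -0.022 without Y3/CD103-/- array 2 (-0.10 to 0.081) and -0.027 with the average. Bcl2l11 was -0.10 with array weights, -0.013 without Y3 array 2, -0.078 without Y3 array 3 and -0.036 without Y3/CD103-/- array 1 (-0.078 to 0.18). Bid was -0.097 without Y3 array 2 and -0.099 without Y3/CD103-/- array 3 (-0.099 to 0.14).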
